A study of Homo sapiens with 4 samples.

Results

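The genes described here were 35 of the 43622 genes in the deposited table. They cover cholesterol and fatty acid synthesis, their transcriptional control and sterol export. The choice was made by symbol for what the genes are known to do, with earlier results of these data known. RNA-seq compared 4 conditions of PC3, a cell line established from a human prostate adenocarcinoma. Each condition had 3 libraries and was harvested after 3 days. Ctrl was PC3 with the vehicle DMSO, MLN was PC3 with 1 µM MLN4924, shARF was PC3-shp14ARF with DMSO, and Both was PC3-shp14ARF with 1 µM MLN4924. MLN4924 blocks NEDDylation, the attachment of NEDD8 to cullins that keeps cullin-RING ubiquitin ligases active. PC3-shp14ARF cells carry a short hairpin RNA (shRNA) against the tumor suppressor p14ARF, brought in stably by a retrovirus and kept by hygromycin selection. For Ctrl and MLN no control shRNA is named, so the vector, the selection and the loss of p14ARF cannot be told apart. The series' design text calls the cells a knockout and gives the dose in mM, while the sample labels give Sh ARF and the treatment protocol gives µM; the labels and the protocol are followed here.

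Cholesterol is built from acetyl-CoA through the mevalonate pathway to farnesyl diphosphate, which is joined to squalene, closed to lanosterol and trimmed to cholesterol. Both this pathway and fatty acid synthesis are driven by sterol regulatory element-binding proteins (SREBPs), the products of SREBF1 and SREBF2. The precursors sit in the endoplasmic reticulum with their escort SCAP, INSIG proteins hold that complex there while sterols are plentiful, and when sterols fall the precursors travel to the Golgi, where 2 proteases release the part that enters the nucleus. When oxysterols accumulate, the liver X receptors (LXRs) instead raise genes of sterol export. Prostate cancer cells are known for high fatty acid synthesis.

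The promoters below are shown because the members they belong to moved in different directions in these data while sharing CCAAT boxes, the elements that NF-Y binds beside SREBPs at many sterol genes. RefSeq windows (GRCh38.p14) from 250 bases before to 50 after the start matched 31 of the 35 members by symbol. FDFT1, SQLE, ABCG1 and FASN had no window in that table. Capitals mark the matches, in the direction of the gene, and ATTGG is CCAAT on the other strand. SREBF2 fell with MLN4924, SCD fell further, FDPS and STARD4 rose, and INSIG1 did not pass the test. HMGCS1 rose slightly in PC3 and fell in PC3-shp14ARF cells.
SREBF2, chr22:41832952-41833023, plus strand: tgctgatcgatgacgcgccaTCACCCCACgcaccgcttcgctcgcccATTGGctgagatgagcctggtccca
SCD, chr10:100346984-100347071, plus strand: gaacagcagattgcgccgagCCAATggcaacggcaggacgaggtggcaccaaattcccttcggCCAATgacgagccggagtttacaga
FDPS, chr1:155308670-155308839, plus strand: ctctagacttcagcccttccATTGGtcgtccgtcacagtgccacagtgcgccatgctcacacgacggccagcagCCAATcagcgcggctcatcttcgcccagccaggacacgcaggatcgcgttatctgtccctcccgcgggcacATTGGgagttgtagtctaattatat
STARD4, chr5:111512641-111512716, minus strand: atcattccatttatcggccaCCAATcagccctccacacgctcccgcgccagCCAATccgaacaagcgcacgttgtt
INSIG1, chr7:155297688-155297848, plus strand: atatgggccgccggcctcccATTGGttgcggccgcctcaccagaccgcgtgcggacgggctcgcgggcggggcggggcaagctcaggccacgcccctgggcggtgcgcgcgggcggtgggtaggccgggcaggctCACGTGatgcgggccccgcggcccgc
HMGCS1, chr5:43313488-43313587, minus strand: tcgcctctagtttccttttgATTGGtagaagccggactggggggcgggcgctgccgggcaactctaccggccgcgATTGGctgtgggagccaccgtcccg
Searched on both strands, CCAAT was in the windows of 22 of the 31 members (71%) and of 39.7% of all 27305 symbols with a window. Some genes have several windows. Counted by window, it was in 59.1% of 44 member windows and in 34.6% of all 35116. TCACNCCAC, a spelling of the sterol regulatory element, was in the window of SREBF2 alone among the members (3.23%) and of 1.39% of all symbols. Only this spelling was searched, so the other members may hold the element in another spelling. CACGTG, the E-box, was in those of LSS, SC5D, SCAP, INSIG1 and ABCA1 (5 of 31, 16.1%) and of 8.77% of all symbols. A match is a string of letters, not a bound site, and these windows are short.

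Levels were given as TPM, a share of transcripts that is scaled for gene length and for the library total. The depth behind a value is therefore unknown. CDKN2A, the gene of p14ARF, averaged 183, 118, 59.3 and 47.5 TPM in Ctrl, MLN, shARF and Both, over all its transcripts, those of p16INK4a included. All 5 epithelial markers (EPCAM, KRT8, KRT18, KRT19, CDH1) reached 1 TPM in every group, and their summed level ran from 907 to 1004 TPM in Ctrl, 439 to 504 TPM in MLN, 1138 to 1280 TPM in shARF and 433 to 450 TPM in Both. These sums moved with MLN4924 as many members did, and their part in the results was not tested. Of the markers of differentiated prostate epithelium, KLK3 was at 0 in all libraries and KLK2 stayed at or below 0.0472 TPM. The 3 blood markers together stayed at or below 0.367 TPM. The 3 fibroblast markers summed to 6.997 to 8.93 TPM in Ctrl, 20.6 to 22.7 TPM in MLN, 8.59 to 10.5 TPM in shARF and 11.4 to 12.5 TPM in Both. The 3 endothelial markers summed to 11.03 to 12.6 TPM in Ctrl and at most 1.97 TPM elsewhere. In cells grown and harvested in bulk, fewer cells that express a gene and less of its RNA per cell cannot be told apart.

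The members split with MLN4924: fatty acid synthesis, the SREBP genes and some sterol enzymes fell, while other sterol enzymes, INSIG2 and the sterol carrier STARD4 rose. In MLN vs Ctrl, 11 members were higher, 20 lower and 4 not called at an adjusted p below 0.05 (limma on log2(TPM + 0.1), Benjamini-Hochberg over 19932 genes). Of the members 31.4% were higher and 57.1% lower, and of all genes tested 32.2% and 29.4%. The share of members higher was thus near that of all genes. The median log2 fold change was −0.39 over the members and 0.05 over all genes. A change of more than 1 in log2 was reached by 9 members (25.7%), STARD4 upward and PMVK, LSS, TM7SF2, DHCR7, ABCA1, ACACA, ELOVL6 and SCD downward, against 28.0% of all genes, a share near that of all genes. In Both vs shARF, 8 members were higher (22.9%) and 23 lower (65.7%), against 28.3% and 32.8% of all genes. Beyond 1 in log2 were 12 members (34.3%) and 26.4% of all genes, and the medians were −0.52 and −0.04. These 2 comparisons share no library. Called lower in both were 19 members (54.3%), against 22.8% of all genes, and higher in both 8 (22.9%; IDI1, FDPS, MSMO1, SC5D, INSIG2, STARD4, MYLIP, FADS1), against 22.0%. Those 19 were 95% of the members lower in MLN vs Ctrl and 82.6% of those lower in Both vs shARF, where the same shares over all genes were 77.4% and 69.5%. HMGCS1 and EBP were called in opposite directions.

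**Figure D1:**
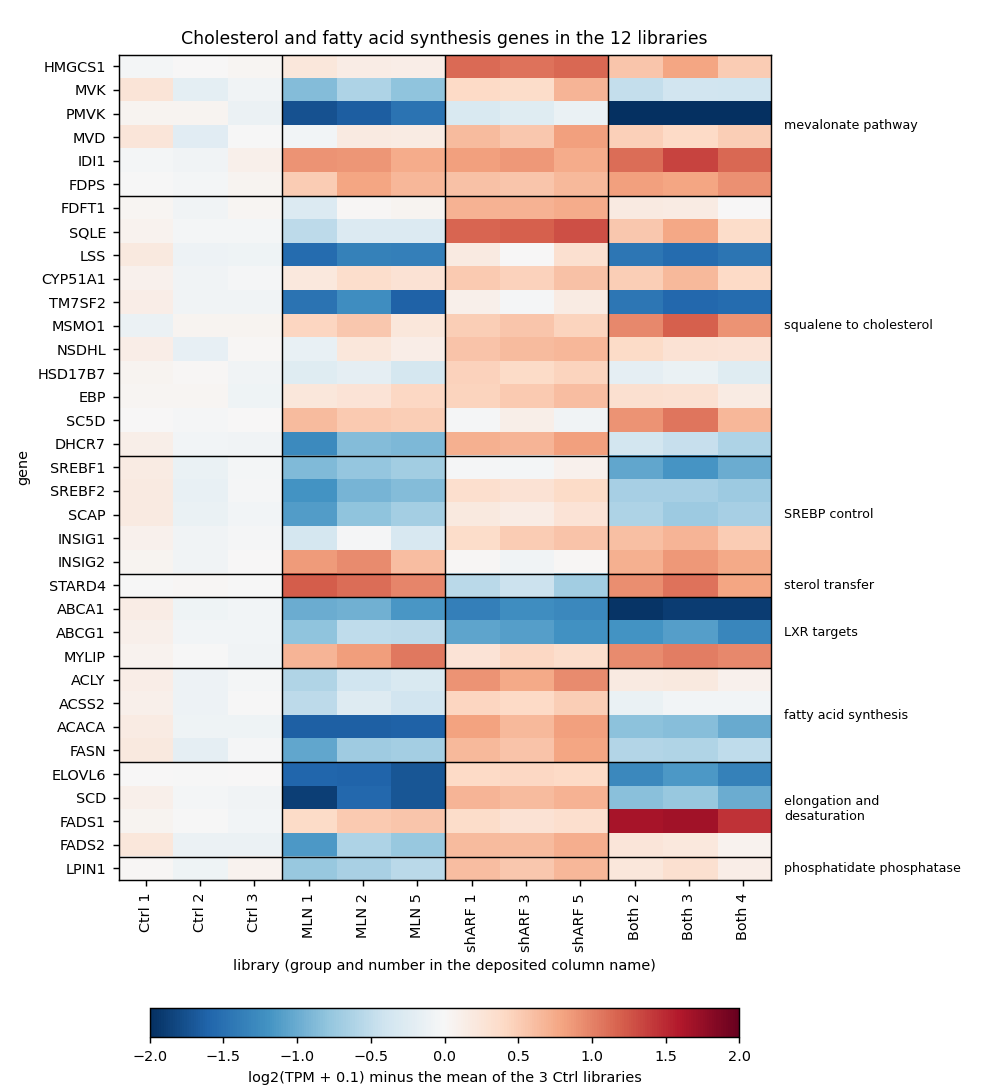
The 35 members (rows, grouped by role) in the 12 libraries (columns) as log2(TPM + 0.1) minus the mean of the 3 Ctrl libraries, red above and blue below it, with colors ending at −2 and 2. The MLN and Both columns were blue for PMVK, LSS, TM7SF2, ACACA, ELOVL6 and SCD and red for IDI1, INSIG2 and STARD4, and the shARF column was red for most rows and blue for ABCA1, ABCG1 and STARD4.

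Without the drug, cells with the p14ARF shRNA had more RNA of most of the synthesis genes and less of the export pumps. In shARF vs Ctrl, 25 members were higher (71.4%) and 3 lower (STARD4, ABCA1 and ABCG1), against 21.0% and 20.4% of all genes, with a median of 0.48 where the median of all genes was at 0. The changes were mostly small: HMGCS1 and SQLE rose and ABCA1 and ABCG1 fell by more than 1 in log2, 4 of 35 (11.4%), against 10.5% of all genes. In Both vs MLN, 16 members were higher and 4 lower (PMVK, SREBF1, ABCA1, ABCG1), against 11.8% and 20.6%, with medians of 0.30 for the members and −0.08 for all genes, and FADS1 and FADS2 alone passed 1 in log2, against 9.02% of all genes. Both vs MLN depended on the scaling: after median-of-ratios scaling, 22 members were higher and 3 lower, and of all genes 18.4% and 17.4%. Of the 25 members higher in shARF vs Ctrl, 16 (64.0%) were also higher in Both vs MLN, where they were all of the members called higher. Of all genes higher in shARF vs Ctrl, 29.2% were higher in Both vs MLN too, 52.1% of those higher there. ABCA1 and ABCG1 were lower in both. These comparisons share no library either, but each shares its control group with a comparison of the drug. Whether replicates were separate cultures is not stated, so all p-values measure the spread between these libraries, which may be technical.

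The genes that control SREBPs fell with MLN4924, apart from the INSIG genes. In what follows, a log2 fold change is given ± SE with its adjusted p from limma. SREBF2, whose product SREBP2 drives mainly cholesterol synthesis, measured 66.8, 53.4 and 58.4 TPM in Ctrl and 25.8, 31.2 and 32.5 TPM in MLN. SREBF2 stood at 74.8, 72.4 and 77.7 TPM in shARF and 37.4, 37.2 and 35.9 TPM in Both. All 4 groups lay apart, with the drug-treated libraries of each cell line far below its own DMSO libraries, at 50.1% of the mean in PC3 and 49.1% in PC3-shp14ARF cells. Its log2 fold change was −0.99 ± 0.12 (adjusted p = 0.000637) in MLN vs Ctrl and −1.02 ± 0.041 (adjusted p = 1.02e-05) in Both vs shARF, and the difference between these responses was −0.028 with a 95% interval from −0.31 to 0.26. In shARF vs Ctrl it was 0.34 ± 0.088 (adjusted p = 0.0311), a call that was lost when any 1 of 5 libraries (Ctrl 2, Ctrl 3, shARF 1, shARF 3, shARF 5) was left out, with adjusted p between 0.00769 and 0.0969.

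SREBF1, the gene of SREBP1a and SREBP1c, which act more on fatty acid synthesis, measured 43.6, 35.5 and 37.8 TPM in Ctrl and 20.9, 22.5 and 23.96 TPM in MLN. SREBF1 stood at 38.3, 37.8 and 41.1 TPM in shARF and 18.8, 17.1 and 19.5 TPM in Both, with its isoforms not separated. Every drug-treated library lay below every DMSO library, and the Ctrl and shARF libraries overlapped. It fell by 0.79 ± 0.093 (adjusted p = 0.000605) in MLN vs Ctrl and by 1.08 ± 0.064 (adjusted p = 3.90e-05) in Both vs shARF. The shRNA comparison without drug gave 0.010 ± 0.085 (adjusted p = 0.956). In Both vs MLN it was −0.28 ± 0.078 (adjusted p = 0.0387), and that call was lost without any 1 of 5 libraries (MLN 2, MLN 5, Both 2, Both 3, Both 4), with adjusted p from 0.0365 to 0.111, and under median-of-ratios scaling. RAI1, on the opposite strand, shares 6.75% of the exon bases of SREBF1 in the GENCODE annotation, and whether reads were counted by strand is not stated.

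SCAP, the escort of SREBP precursors, measured 57.5, 46.3 and 48.8 TPM in Ctrl and 23.4, 29.0 and 31.6 TPM in MLN. SCAP stood at 58.2, 55.9 and 61.5 TPM in shARF and 32.9, 30.6 and 31.8 TPM in Both. The drug-treated libraries were again lower in both cell lines, and within a treatment the cell lines overlapped. The log2 fold change was −0.86 ± 0.14 (adjusted p = 0.00198) in MLN vs Ctrl and −0.88 ± 0.051 (adjusted p = 3.53e-05) in Both vs shARF. Neither comparison of the shRNA passed the test for SCAP, at 0.21 ± 0.091 (adjusted p = 0.133) and 0.19 ± 0.12 (adjusted p = 0.253).

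The INSIG genes, which encode the proteins that hold SCAP in the endoplasmic reticulum, went separate ways. INSIG1, itself a target of SREBPs, measured 60.3, 54.0 and 55.5 TPM in Ctrl and 44.4, 55.6 and 45.2 TPM in MLN. INSIG1 stood at 73.1, 80.4 and 83.8 TPM in shARF and 85.9, 90.4 and 80.2 TPM in Both. Drug and DMSO libraries overlapped within each cell line, and every PC3-shp14ARF library lay above every PC3 library. Its log2 fold change was −0.23 ± 0.10 (adjusted p = 0.0892) in MLN vs Ctrl, 0.11 ± 0.069 (adjusted p = 0.208) in Both vs shARF, 0.48 ± 0.068 (adjusted p = 0.00422) in shARF vs Ctrl and 0.83 ± 0.10 (adjusted p = 0.00293) in Both vs MLN. INSIG2, whose transcription is known to be less dependent on SREBPs, measured 37.0, 34.2 and 36.2 TPM in Ctrl and 64.7, 69.2 and 54.8 TPM in MLN. INSIG2 stood at 36.3, 34.0 and 36.5 TPM in shARF and 58.8, 65.6 and 60.5 TPM in Both. It was higher in every drug-treated library than in any DMSO library, by 0.81 ± 0.093 (adjusted p = 0.000551) in MLN vs Ctrl and 0.79 ± 0.055 (adjusted p = 7.31e-05) in Both vs shARF. With the shRNA it moved by only −0.0079 (95% interval −0.12 to 0.11) and −0.024 (−0.26 to 0.22).

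STARD4, which carries cholesterol between membranes and is known as an SREBP2 target, was the member with the largest rise under the drug. It measured 42.0, 43.0 and 42.1 TPM in Ctrl and 98.3, 91.5 and 83.3 TPM in MLN. STARD4 stood at 29.1, 31.3 and 26.0 TPM in shARF and 80.6, 90.2 and 73.0 TPM in Both. The drug-treated libraries of both cell lines overlapped, at a level above all DMSO libraries, and the shARF libraries were the lowest. The log2 fold change was 1.10 ± 0.067 (adjusted p = 4.38e-05) in MLN vs Ctrl and 1.49 ± 0.10 (adjusted p = 6.50e-05) in Both vs shARF. With the shRNA it was −0.56 ± 0.071 (adjusted p = 0.00295) in shARF vs Ctrl and −0.17 ± 0.10 (adjusted p = 0.25) in Both vs MLN.

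The LXR targets did not move as a group. ABCA1, the pump that loads cholesterol onto apolipoprotein A-I, measured 8.11, 6.89 and 7.0002 TPM in Ctrl and 3.61, 3.71 and 3.22 TPM in MLN. ABCA1 stood at 2.79, 3.04 and 2.95 TPM in shARF and 1.81, 1.89 and 1.88 TPM in Both. The groups did not overlap, and the order was Ctrl, MLN, shARF, Both from high to low. Its log2 fold change was −1.29 ± 0.091 (adjusted p = 0.000473) in shARF vs Ctrl, −0.88 ± 0.11 (adjusted p = 0.00323) in Both vs MLN, −1.04 ± 0.11 (adjusted p = 0.000337) in MLN vs Ctrl and −0.63 ± 0.10 (adjusted p = 0.00252) in Both vs shARF, so the Both libraries averaged 1.86 ± 0.0437 TPM (SD, n = 3).

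ABCG1, which exports cholesterol to high-density lipoprotein, measured 29.5, 26.5 and 26.6 TPM in Ctrl and 15.7, 19.2 and 19.1 TPM in MLN. ABCG1 stood at 13.2, 12.8 and 11.8 TPM in shARF and 11.99, 12.8 and 11.02 TPM in Both. All shRNA libraries were below all PC3 libraries, and shARF and Both overlapped. Its log2 fold change was −1.12 ± 0.066 (adjusted p = 0.000293) in shARF vs Ctrl and −0.59 ± 0.11 (adjusted p = 0.0096) in Both vs MLN. With the drug it fell by 0.62 ± 0.10 (adjusted p = 0.00213) in PC3 and gave −0.081 ± 0.078 (adjusted p = 0.405) in PC3-shp14ARF cells. MYLIP, a ubiquitin ligase that limits lipoprotein uptake, measured 11.6, 10.9 and 10.4 TPM in Ctrl and 17.7, 19.7 and 22.8 TPM in MLN. MYLIP stood at 13.3, 14.7 and 14.02 TPM in shARF and 21.3, 22.4 and 21.5 TPM in Both. It was higher in every drug-treated library than in any DMSO library, by 0.86 ± 0.10 (adjusted p = 0.000683) in MLN vs Ctrl and 0.63 ± 0.053 (adjusted p = 0.000153) in Both vs shARF, and rose by 0.35 ± 0.060 (adjusted p = 0.00809) in shARF vs Ctrl.

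**Figure D2:**
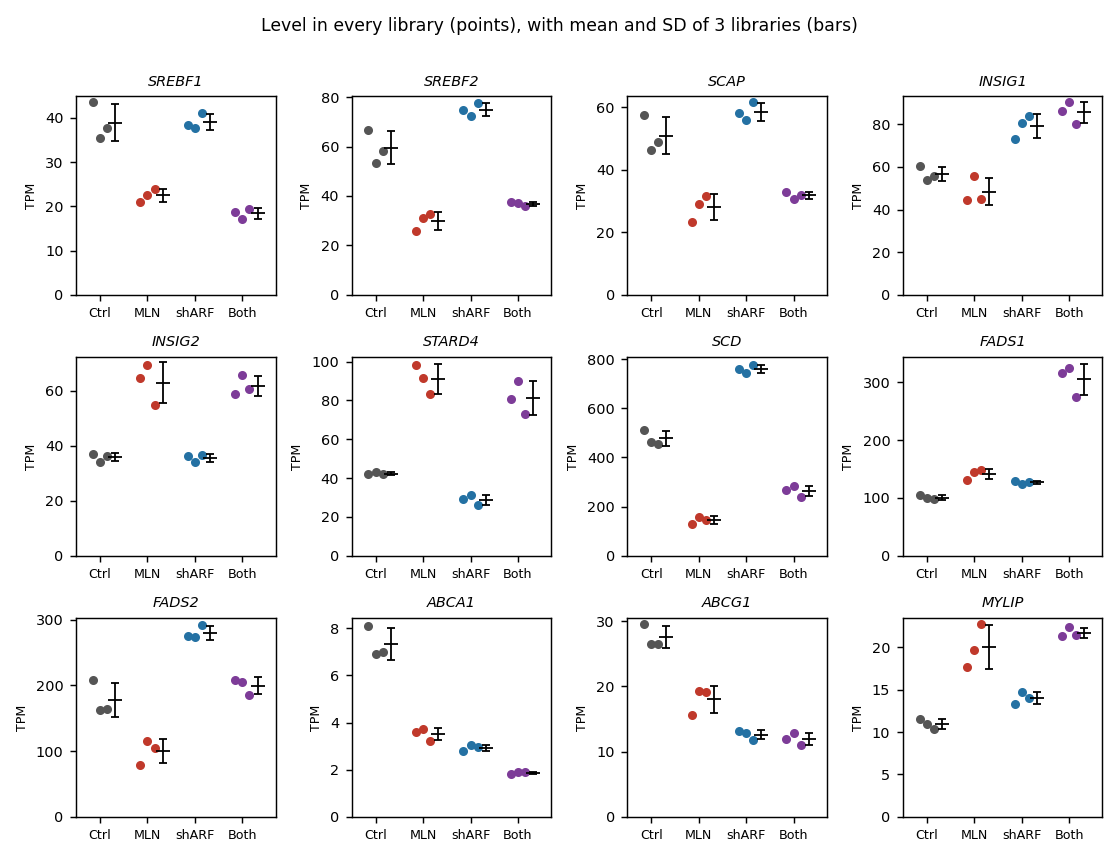
TPM in every library (points, 3 per group) for 12 members, with the mean and SD of each group as a bar at the right of its points, each vertical axis starting at 0. SREBF1, SREBF2, SCAP and SCD were lower and INSIG2, STARD4 and MYLIP higher in the MLN and Both libraries than in the DMSO libraries, FADS1 was highest in Both, and ABCA1 and ABCG1 were highest in Ctrl.

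In the mevalonate pathway the kinases fell with the drug and the last steps rose. PMVK, the kinase that makes mevalonate diphosphate, measured 124, 124 and 109.7 TPM in Ctrl and 35.3, 37.7 and 42.6 TPM in MLN. PMVK stood at 96.2, 99.9 and 109 TPM in shARF and 27.6, 22.8 and 22.1 TPM in Both. Its drug-treated libraries were lowest, at 32.4% of the Ctrl mean in MLN and 23.8% of the shARF mean in Both, and no groups overlapped. The log2 fold change was −1.63 ± 0.088 (adjusted p = 2.89e-05) in MLN vs Ctrl, −2.07 ± 0.10 (adjusted p = 1.75e-05) in Both vs shARF and −0.67 ± 0.11 (adjusted p = 0.00755) in Both vs MLN, while shARF vs Ctrl gave −0.23 ± 0.070 (adjusted p = 0.0518).

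HMGCS1, the synthase that joins acetyl-CoA to acetoacetyl-CoA, measured 45.5, 46.6 and 47.7 TPM in Ctrl and 54.7, 51.9 and 51.0 TPM in MLN. HMGCS1 stood at 102, 98.8 and 104 TPM in shARF and 68.6, 80.2 and 66.5 TPM in Both. The groups lay apart, with shARF highest and Both next. It rose by 1.12 ± 0.030 (adjusted p = 4.08e-05) in shARF vs Ctrl and by 0.45 ± 0.082 (adjusted p = 0.0103) in Both vs MLN. With the drug it rose by 0.17 ± 0.046 (adjusted p = 0.0178) in PC3 and fell by 0.50 ± 0.076 (adjusted p = 0.00183) in PC3-shp14ARF cells. The call in PC3 was lost without Ctrl 1 (adjusted p = 0.0503) and without the trend in eBayes. It was also lost with the library numbers as a block (adjusted p = 0.186, or 0.0507 with all 12 libraries in one fit).

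The other 4 members of this pathway were the kinase MVK, the decarboxylase MVD, the isomerase IDI1 and the farnesyl diphosphate synthase FDPS, given as mean ± SD of 3 libraries. IDI1 averaged 31.6 ± 2.02 TPM in Ctrl, 56.6 ± 3.57 TPM in MLN, 55.4 ± 2.32 TPM in shARF and 72.9 ± 6.58 TPM in Both, and rose with the drug in PC3 (0.84 ± 0.071, adjusted p = 0.000147) and in PC3-shp14ARF cells (0.39 ± 0.073, adjusted p = 0.00438). FDPS averaged 173 ± 5.60 TPM in Ctrl, 272 ± 26.1 TPM in MLN, 262 ± 9.30 TPM in shARF and 310.0 ± 13.8 TPM in Both, and rose by 0.65 ± 0.079 (adjusted p = 0.00068) and 0.24 ± 0.050 (adjusted p = 0.00688) in the same comparisons. MVK averaged 19.2 ± 3.12 TPM in Ctrl, 11.2 ± 1.05 TPM in MLN, 26.7 ± 3.27 TPM in shARF and 14.2 ± 0.454 TPM in Both and fell with the drug, by 0.77 ± 0.13 (adjusted p = 0.0031) and 0.91 ± 0.092 (adjusted p = 0.000326). MVD averaged 41.4 ± 6.71 TPM in Ctrl, 44.02 ± 3.77 TPM in MLN, 65.4 ± 6.55 TPM in shARF and 56.3 ± 1.98 TPM in Both, and passed the test in neither drug comparison (0.10 ± 0.13 (adjusted p = 0.551) and −0.21 ± 0.077 (adjusted p = 0.0576)). All 4 were higher in shARF than in Ctrl, by 0.48 to 0.81 in log2. That call was lost for MVK without any 1 of 5 libraries (Ctrl 2, Ctrl 3 and each shARF library), with adjusted p of 0.0221 to 0.137, and for MVD without Ctrl 3, shARF 1 or shARF 5, with adjusted p of 0.0113 to 0.055. In Both vs MLN, MVK (0.34 ± 0.084, adjusted p = 0.0258), MVD (0.36 ± 0.075, adjusted p = 0.0158) and IDI1 (0.36 ± 0.083, adjusted p = 0.0217) were called higher, each call lost without some libraries. For MVK these were MLN 1, MLN 5 and each Both library (adjusted p up to 0.0779), for MVD Both 2 or Both 4 (up to 0.0606) and for IDI1 MLN 2 or MLN 5 (up to 0.0636). FDPS has 8 pseudogenes named after it and IDI1 has 3, and how reads matching several places were counted is not stated. RUSC1-AS1, on the opposite strand at a mean of 1.03 TPM, shares 18.6% of the exon bases of FDPS, and MMAB shares 2.5% of those of MVK.

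Among the 11 members that turn farnesyl diphosphate into cholesterol, 4 were higher and 5 lower in MLN vs Ctrl (36.4% and 45.5%, against 32.2% and 29.4% of all genes), and 2 were higher and 8 lower in Both vs shARF (18.2% and 72.7%, against 28.3% and 32.8%). LSS, which closes squalene epoxide to lanosterol, measured 34.5, 28.2 and 28.5 TPM in Ctrl and 10.3, 11.8 and 11.7 TPM in MLN. LSS stood at 34.1, 30.6 and 38.0 TPM in shARF and 11.1, 10.3 and 10.9 TPM in Both. The drug brought it down in both cell lines, to 37.0% and 31.5% of the DMSO means. Its log2 fold change was −1.42 ± 0.10 (adjusted p = 7.86e-05) in MLN vs Ctrl and −1.65 ± 0.087 (adjusted p = 2.54e-05) in Both vs shARF. TM7SF2, a sterol reductase of the following steps, measured 34.98, 30.7 and 30.7 TPM in Ctrl and 11.5, 13.5 and 10.4 TPM in MLN. TM7SF2 stood at 34.4, 31.6 and 35.8 TPM in shARF and 11.7, 10.7 and 11.01 TPM in Both. Its levels were close to those of LSS in every group, and it fell with the drug by 1.44 ± 0.11 (adjusted p = 0.000108) and 1.60 ± 0.063 (adjusted p = 1.00e-05). Neither LSS (0.17 ± 0.12, adjusted p = 0.3) nor TM7SF2 (0.081 ± 0.074, adjusted p = 0.438) passed the test in shARF vs Ctrl.

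DHCR7, the reductase that makes cholesterol from its dehydro precursor, measured 149, 131 and 131 TPM in Ctrl and 56.3, 74.9 and 72.9 TPM in MLN. DHCR7 stood at 223, 219.6 and 241 TPM in shARF and 106, 99.7 and 88.9 TPM in Both. No groups overlapped, shARF being highest and MLN lowest. It fell with the drug, by 1.02 ± 0.12 (adjusted p = 0.000679) in PC3 and 1.22 ± 0.076 (adjusted p = 4.74e-05) in PC3-shp14ARF cells, and rose by 0.74 ± 0.068 (adjusted p = 0.00107) in shARF vs Ctrl. The call in Both vs MLN, 0.54 ± 0.13 (adjusted p = 0.0248), was lost without MLN 5, Both 2 or Both 3, with adjusted p up to 0.0877.

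SQLE, the squalene epoxidase and a rate-limiting enzyme of the pathway, measured 63.3, 58.4 and 58.7 TPM in Ctrl and 41.8, 49.5 and 49.95 TPM in MLN. SQLE stood at 135, 138 and 147 TPM in shARF and 87.5, 103 and 77.6 TPM in Both. The groups did not overlap and both PC3-shp14ARF groups lay above both PC3 groups. SQLE had the largest rise of the members in shARF vs Ctrl, 1.21 ± 0.049 (adjusted p = 9.93e-05), and was also higher in Both vs MLN, by 0.92 ± 0.12 (adjusted p = 0.00381). With the drug it fell by 0.36 ± 0.082 (adjusted p = 0.0102) and 0.65 ± 0.11 (adjusted p = 0.00239).

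The other 7 members of this stretch averaged between 23.8 TPM (HSD17B7) and 140.2 TPM (CYP51A1) in Ctrl, and their log2 fold changes with the drug lay between −0.62 and 0.87. SC5D, a desaturase near the end of the pathway, averaged 37.6 ± 0.419 TPM in Ctrl, 55.0 ± 2.87 TPM in MLN, 37.8 ± 2.46 TPM in shARF and 69.5 ± 10.0 TPM in Both. It rose with the drug in both cell lines, by 0.55 ± 0.050 (adjusted p = 0.000212) and 0.87 ± 0.11 (adjusted p = 0.000954), and did not pass the test in shARF vs Ctrl (0.0055 ± 0.051, adjusted p = 0.962). MSMO1, a sterol demethylase, averaged 80.7 ± 5.62 TPM in Ctrl, 107 ± 11.5 TPM in MLN, 113 ± 4.24 TPM in shARF and 164 ± 18.5 TPM in Both, and rose by 0.40 ± 0.10 (adjusted p = 0.0118) in MLN vs Ctrl, 0.53 ± 0.085 (adjusted p = 0.00242) in Both vs shARF and 0.49 ± 0.061 (adjusted p = 0.00268) in shARF vs Ctrl. CYP51A1, which demethylates lanosterol, averaged 140.2 ± 8.11 TPM in Ctrl, 171 ± 8.41 TPM in MLN, 201 ± 8.83 TPM in shARF and 200.03 ± 17.7 TPM in Both, with 0.29 ± 0.063 (adjusted p = 0.00821) in MLN vs Ctrl and −0.011 ± 0.074 (adjusted p = 0.911) in Both vs shARF. EBP, a sterol isomerase, averaged 109.6 ± 5.23 TPM in Ctrl, 135 ± 9.09 TPM in MLN, 158 ± 9.01 TPM in shARF and 132 ± 7.89 TPM in Both, and rose by 0.30 ± 0.066 (adjusted p = 0.00789) in PC3 and fell by 0.26 ± 0.064 (adjusted p = 0.0128) in PC3-shp14ARF cells. For FDFT1, the squalene synthase, the levels were 127 ± 5.31 TPM in Ctrl, 122 ± 14.2 TPM in MLN, 208 ± 4.22 TPM in shARF and 138 ± 9.04 TPM in Both. FDFT1 had −0.065 ± 0.094 (adjusted p = 0.578) in MLN vs Ctrl and fell by 0.60 ± 0.056 (adjusted p = 0.00024) in Both vs shARF. NSDHL, which acts with MSMO1, gave 0.070 ± 0.12 (adjusted p = 0.649) and −0.31 ± 0.045 (adjusted p = 0.00157), and HSD17B7, a ketosteroid reductase of these steps, fell by 0.26 ± 0.066 (adjusted p = 0.0146) and 0.62 ± 0.047 (adjusted p = 0.000102). In shARF vs Ctrl, MSMO1, CYP51A1, EBP, FDFT1, NSDHL and HSD17B7 were all called higher, from 0.43 to 0.71 in log2. CYP51A1 has 3 and HSD17B7 2 pseudogenes named after them, and AKAP9, on the opposite strand, shares 2.59% of the exon bases of CYP51A1.

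All 4 members that make palmitate from citrate and acetate fell with MLN4924 in both cell lines and were higher in shARF than in Ctrl. ACACA, the acetyl-CoA carboxylase that commits carbon to fatty acids, measured 24.9, 20.8 and 20.8 TPM in Ctrl and 7.04, 7.03 and 7.09 TPM in MLN. ACACA stood at 38.7, 34.8 and 39.1 TPM in shARF and 12.4, 12.2 and 10.9 TPM in Both. The groups did not overlap, and the MLN libraries had an SD of 0.0351 TPM. It fell by 1.63 ± 0.085 (adjusted p = 2.59e-05) in MLN vs Ctrl and 1.66 ± 0.075 (adjusted p = 1.49e-05) in Both vs shARF, to 31.8% and 31.5% of the DMSO means. The 2 responses differed by −0.026, with a 95% interval from −0.28 to 0.23. ACACA was higher with the shRNA by 0.76 ± 0.091 (adjusted p = 0.0024) without and 0.73 ± 0.075 (adjusted p = 0.00168) with the drug.

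FASN, the fatty acid synthase, measured 124, 94.7 and 106 TPM in Ctrl and 52.1, 65.5 and 67.2 TPM in MLN. FASN stood at 169, 160.2 and 187 TPM in shARF and 71.8, 70.7 and 75.4 TPM in Both. No groups overlapped, shARF being highest. It fell with the drug by 0.81 ± 0.14 (adjusted p = 0.00271) in PC3 and 1.24 ± 0.065 (adjusted p = 2.46e-05) in PC3-shp14ARF cells, and was higher by 0.67 ± 0.11 (adjusted p = 0.0077) in shARF vs Ctrl, with 0.25 ± 0.11 (adjusted p = 0.127) in Both vs MLN. ACLY, which splits citrate to acetyl-CoA, averaged 118 ± 10.1 TPM in Ctrl, 87.2 ± 8.69 TPM in MLN, 214 ± 13.4 TPM in shARF and 130.4 ± 5.35 TPM in Both, and ACSS2, which makes acetyl-CoA from acetate, averaged 102 ± 7.33 TPM in Ctrl, 77.9 ± 6.96 TPM in MLN, 138 ± 4.04 TPM in shARF and 95.8 ± 3.11 TPM in Both. Their falls with the drug were smaller in size than those of ACACA and FASN. ACLY fell by 0.43 ± 0.10 (adjusted p = 0.00871) and 0.72 ± 0.059 (adjusted p = 0.000144), and ACSS2 fell by 0.39 ± 0.085 (adjusted p = 0.0085) and 0.52 ± 0.041 (adjusted p = 0.000113). In shARF vs Ctrl, ACLY rose by 0.87 ± 0.079 (adjusted p = 0.00103) and ACSS2 by 0.44 ± 0.059 (adjusted p = 0.00353). In Both vs MLN, ACLY was higher by 0.58 ± 0.084 (adjusted p = 0.00466), and the call of ACSS2, 0.30 ± 0.075 (adjusted p = 0.0276), was lost without MLN 5 or any 1 Both library, with adjusted p up to 0.0828.

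In elongation and desaturation SCD, ELOVL6 and FADS2 fell and FADS1 rose under the drug. SCD, which puts the first double bond into saturated fatty acids, was the most abundant member in Ctrl and shARF and measured 514, 465 and 454 TPM in Ctrl and 129, 159.9 and 146 TPM in MLN. SCD stood at 760.3, 742 and 774 TPM in shARF and 266, 283 and 240.0 TPM in Both. The groups did not overlap, and SCD had the largest fall of the members in MLN vs Ctrl, to 30.3% of the Ctrl mean, or −1.72 ± 0.094 (adjusted p = 3.06e-05) in log2. In Both vs shARF it fell by 1.53 ± 0.069 (adjusted p = 1.49e-05), and with the shRNA it rose by 0.67 ± 0.056 (adjusted p = 0.000798) without and 0.86 ± 0.10 (adjusted p = 0.00254) with the drug. ELOVL6, which extends palmitate to stearate, measured 32.1, 31.9 and 32.2 TPM in Ctrl and 10.6, 10.5 and 9.78 TPM in MLN. ELOVL6 stood at 42.1, 42.9 and 42.4 TPM in shARF and 12.99, 14.4 and 12.5 TPM in Both. Its libraries differed little within each group, and it fell by 1.63 ± 0.052 (adjusted p = 6.27e-06) and 1.67 ± 0.060 (adjusted p = 7.16e-06), a difference between the responses of −0.037 with a 95% interval from −0.23 to 0.15. It rose by 0.41 ± 0.019 (adjusted p = 0.000169) in shARF vs Ctrl, and its call in Both vs MLN, 0.37 ± 0.077 (adjusted p = 0.016), was lost without MLN 2, MLN 5 or Both 2, with adjusted p up to 0.0511. SCD has 1 pseudogene named after it.

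FADS1, the delta-5 desaturase of polyunsaturated fatty acids, measured 105, 100.2 and 97.4 TPM in Ctrl and 132, 145 and 149 TPM in MLN. FADS1 stood at 129, 123 and 128 TPM in shARF and 315, 325 and 275 TPM in Both. The groups did not overlap, and Both stood above the rest, at 240.3% of the shARF mean. It rose with the drug by 0.49 ± 0.061 (adjusted p = 0.000763) in PC3 and 1.26 ± 0.070 (adjusted p = 3.13e-05) in PC3-shp14ARF cells, and with the shRNA by 0.33 ± 0.036 (adjusted p = 0.00178) without and 1.10 ± 0.086 (adjusted p = 0.000786) with the drug. FADS2, the delta-6 desaturase that acts before it, measured 208, 162 and 164 TPM in Ctrl and 79.3, 115 and 105 TPM in MLN. FADS2 stood at 274, 273 and 291 TPM in shARF and 208, 205 and 185 TPM in Both. Here MLN was lowest and shARF highest, while Ctrl and Both overlapped. FADS2 fell with the drug by 0.84 ± 0.17 (adjusted p = 0.00529) and 0.49 ± 0.059 (adjusted p = 0.000711), opposite to FADS1, and was higher by 0.66 ± 0.11 (adjusted p = 0.00651) in shARF vs Ctrl and 1.01 ± 0.14 (adjusted p = 0.00454) in Both vs MLN. The 2 genes lie on chromosome 11 (GRCh38.p14), where RefSeq has FADS1 on the minus strand with its start at 61817003 and FADS2 on the plus strand with starts at 61816203 and 61816404, 800 and 599 bases from that of FADS1. In the GENCODE annotation the span of FADS1, 61799627 to 61829318, lies wholly within that of FADS2, 61792980 to 61867354. Their GENCODE exons share 490 bases, 4.79% of those of FADS1 and 4.64% of those of FADS2, where reads cannot be assigned to 1 of the 2 without the strand. FEN1 shares a further 49 exon bases with FADS2.

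LPIN1, the phosphatidate phosphatase that makes diacylglycerol, averaged 16.4 ± 0.873 TPM in Ctrl, 10.4 ± 0.761 TPM in MLN, 25.1 ± 1.20 TPM in shARF and 19.2 ± 1.22 TPM in Both. It fell with the drug by 0.65 ± 0.078 (adjusted p = 0.000651) in PC3 and 0.39 ± 0.065 (adjusted p = 0.00273) in PC3-shp14ARF cells and rose with the shRNA by 0.61 ± 0.057 (adjusted p = 0.00113) without and 0.87 ± 0.082 (adjusted p = 0.00133) with the drug.

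**Figure D3:**
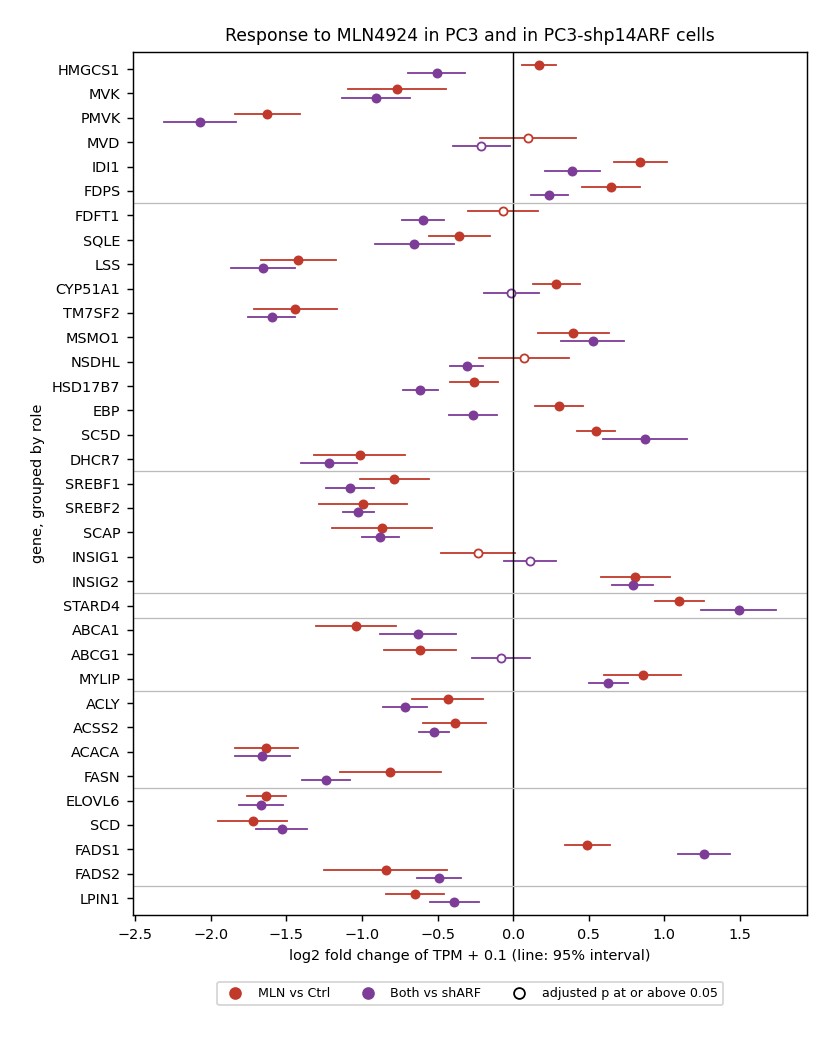
Log2 fold change of TPM + 0.1 with MLN4924 for the 35 members, grouped by role, in PC3 (MLN vs Ctrl, red) and in PC3-shp14ARF cells (Both vs shARF, purple), with 95% intervals and open points where the adjusted p was at or above 0.05. In both cell lines PMVK, LSS, TM7SF2, ACACA, ELOVL6 and SCD lay below −1 and STARD4 above 1, and HMGCS1 and EBP lay on opposite sides of 0.

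**Figure D4:**
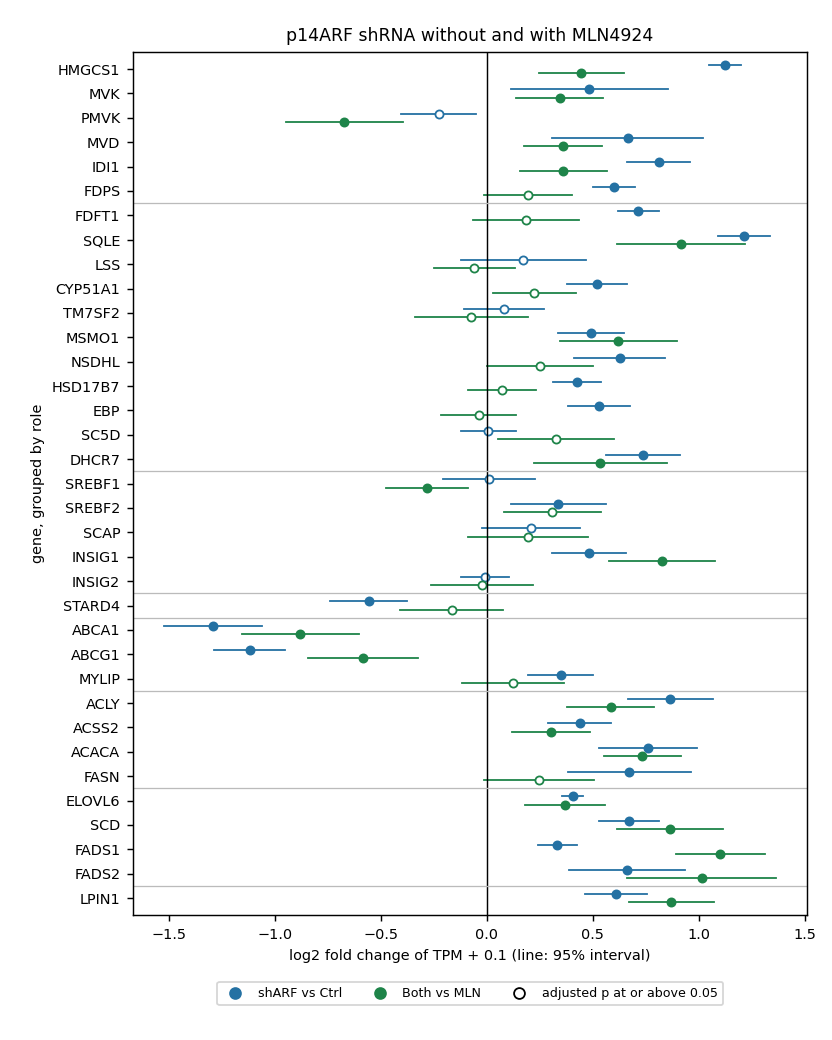
Log2 fold change of TPM + 0.1 with the p14ARF shRNA for the 35 members, grouped by role, without MLN4924 (shARF vs Ctrl, blue) and with it (Both vs MLN, green), with 95% intervals and open points where the adjusted p was at or above 0.05. Most points lay to the right of 0, up to 1.21 for SQLE without the drug, and ABCA1 and ABCG1 lay to the left in both comparisons.

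Added up over a role, the levels showed where the RNA lay, as a description with no test. Elongation and desaturation summed to 788 ± 60.8 TPM in Ctrl, 397 ± 41.4 TPM in MLN, 1208 ± 27.2 TPM in shARF and 781 ± 60.9 TPM in Both, and fatty acid synthesis to 349.8 ± 34.1 TPM in Ctrl, 234 ± 22.7 TPM in MLN, 562 ± 32.5 TPM in shARF and 311 ± 3.53 TPM in Both (mean ± SD, n = 3). These sums were lowest in MLN, and those of the Both libraries were nearer to Ctrl than to MLN. The members of these roles differed: in Both, the means of SCD, ELOVL6, ACACA and FASN were nearer to MLN than to Ctrl. Those of ACLY, ACSS2 and FADS2 were nearer to Ctrl. FADS1, at 305 TPM in Both, lay above Ctrl (101 TPM) and MLN (142 TPM). The 6 mevalonate members summed to 431 ± 11.6 TPM in Ctrl, 475 ± 30.1 TPM in MLN, 613 ± 24.5 TPM in shARF and 549 ± 6.99 TPM in Both, and the 11 that follow to 888 ± 38.15 TPM in Ctrl, 863 ± 56.2 TPM in MLN, 1355 ± 42.0 TPM in shARF and 1069 ± 78.6 TPM in Both. In these 2 roles some members rose as others fell with the drug. The MLN sum of the 11 was close to that of Ctrl. For the 6 mevalonate members the MLN libraries (444 to 504 TPM) lay above the Ctrl libraries (420 to 443 TPM). The 5 members of SREBP control summed to 242 ± 21.3 TPM in Ctrl, 192 ± 14.5 TPM in MLN, 287 ± 11.6 TPM in shARF and 234 ± 6.53 TPM in Both, and the 3 LXR targets to 45.9 ± 2.92 TPM in Ctrl, 41.6 ± 4.17 TPM in MLN, 29.6 ± 0.916 TPM in shARF and 35.5 ± 1.38 TPM in Both. Over all 35 members the sum was 2803 ± 165 TPM in Ctrl, 2303 ± 161 TPM in MLN, 4108 ± 131 TPM in shARF and 3080.2 ± 155 TPM in Both.

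Whether the response to MLN4924 differed between the cell lines was tested for each member as the interaction, the log2 response in PC3-shp14ARF cells minus that in PC3, over the 12 libraries. It was higher for 3 members (STARD4, ABCG1, FADS1), or 8.57%, against 11.2% of all genes. It was lower for 8 (HMGCS1, PMVK, IDI1, FDPS, FDFT1, CYP51A1, HSD17B7, EBP), or 22.9%, against 17.1% of all genes. The other 24 were not called. The median was −0.16 over the members and −0.09 over all genes, and no member passed 1 in log2. After median-of-ratios scaling the split was 8 higher and 6 lower, and of all genes 16.2% and 14%. The 8 lower ones all belong to the mevalonate and later cholesterol steps, 8 of the 17 members with those roles, where 17.1% of all genes were lower. Those 17 were not tested as a set. Under median-of-ratios scaling PMVK (adjusted p = 0.061) and CYP51A1 (adjusted p = 0.0699) lost their calls. FADS1 had the largest positive difference, 0.77 ± 0.10 (adjusted p = 0.000148), and HMGCS1 the largest negative one, −0.68 ± 0.095 (adjusted p = 0.000277). For the 5 members of SREBP control none passed in the main fit, with differences from −0.29 (95% interval −0.55 to −0.034) for SREBF1 to 0.34 (0.069 to 0.62) for INSIG1. INSIG1 was called higher under median-of-ratios scaling (0.44, adjusted p = 0.0101), with the floor at 1 TPM and without MLN 2. SREBF1 was called lower without Ctrl 1. Without Ctrl 1, and likewise without MLN 1, 13 members were lower, and of all genes 17.5% and 18.6%.

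**Figure D5:**
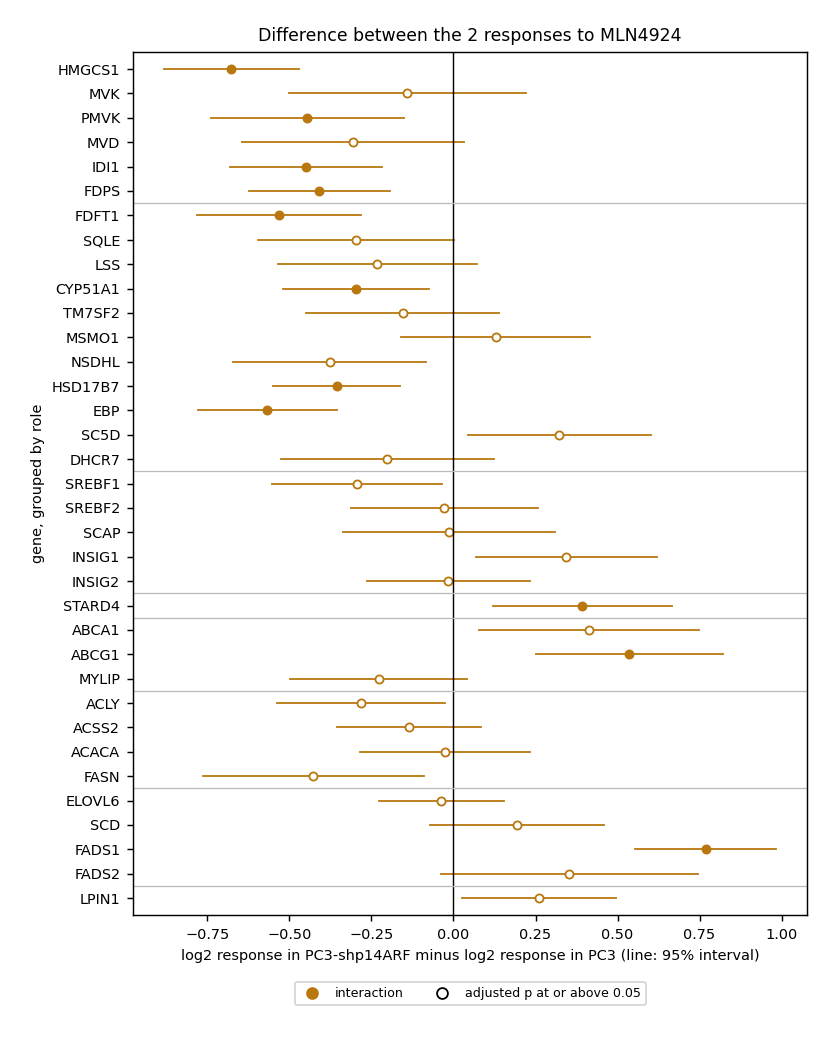
The log2 response to MLN4924 in PC3-shp14ARF cells minus that in PC3 for the 35 members, grouped by role, with 95% intervals and open points where the adjusted p was at or above 0.05. Filled points lay left of 0 for 8 sterol synthesis members, down to −0.68 for HMGCS1, and right of 0 for STARD4, ABCG1 and FADS1, up to 0.77.

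Of 42 further genes of sterol synthesis and transport, SREBP processing, LXR signaling and fatty acid and glycerolipid synthesis, 13 were higher and 15 lower in MLN vs Ctrl (31.0% and 35.7%), near the shares of all genes (32.2% and 29.4%). In Both vs shARF 12 and 22 were called (28.6% and 52.4%, against 28.3% and 32.8%), in shARF vs Ctrl 22 and 5 (52.4% and 11.9%, against 21.0% and 20.4%), in Both vs MLN 12 and 7 (28.6% and 16.7%, against 11.8% and 20.6%) and in the interaction 6 and 14 (14.3% and 33.3%, against 11.2% and 17.1%). The largest rises with the drug in PC3 were those of ACSL5, which activates long-chain fatty acids (3.19 ± 0.14, adjusted p = 1.41e-05), DGAT2, which makes triacylglycerol (2.21 ± 0.10, adjusted p = 1.91e-05), and LBR, a sterol reductase of the nuclear envelope (1.70 ± 0.059, adjusted p = 7.99e-06). ACSL5 averaged 0.829 ± 0.0966 TPM in Ctrl, 8.39 ± 0.848 TPM in MLN, 3.03 ± 0.572 TPM in shARF and 24.7 ± 0.384 TPM in Both. LBR catalyzes the same step as TM7SF2, which fell, and averaged 25.5 ± 0.948 TPM in Ctrl, 83.0 ± 4.91 TPM in MLN, 41.5 ± 2.33 TPM in shARF and 70.4 ± 4.47 TPM in Both. The largest falls were those of GPAM, the first enzyme of glycerolipid synthesis (−1.12 ± 0.068, adjusted p = 4.29e-05), ACACB, the mitochondrial acetyl-CoA carboxylase (−0.98 ± 0.16, adjusted p = 0.0021), and SCD5, a relative of SCD (−0.96 ± 0.14, adjusted p = 0.00132). In Both vs shARF these 6 kept their direction, with 3.00, 0.94, 0.76, −0.98, −1.06 and −1.30 in log2, all called, and the interaction of DGAT2 was −1.27 ± 0.13 (adjusted p = 2.95e-05).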

How the data were processed

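RNA-seq of PC3 cells was analysed from 1 table of 12 libraries, 3 for each of the 4 conditions, which were assigned by column name. The authors trimmed the reads, mapped them to hg38 and quantified genes on an Ensembl annotation in CLC Genomics Workbench, and deposited TPM values, which sum to the same total in every library and carry no depth. Strandedness and the counting of multiply mapped reads are not given in the sources used here. Genes averaging at least 0.1 TPM over the 12 libraries (19932) were fitted as log2(TPM + 0.1) with limma 3.58.1 in R 4.3.3 (lmFit, eBayes with trend), each pairwise comparison on its 6 libraries and the interaction on all 12. Changes of low genes are understated on this scale. P-values were adjusted by Benjamini-Hochberg across those genes, with calls made below 0.05. All 35 members passed the filter. Other prostate markers are not reported here.

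The members and lists were chosen with earlier results of these data known. Values in every library are given for members of SREBP control, LXR targets and members with a called log2 change beyond 1 in any comparison, the rest are given by mean, range and count, and of the 42 further genes the 3 largest rises and falls in MLN vs Ctrl at a mean of at least 1 TPM are named. Alternatives were a replicate block, each library left out in turn, median-of-ratios scaling, one fit of the 12 libraries, no trend in eBayes, a floor of 1 TPM or none, and pseudocounts of 1 and 0.01. The fits were tested on simulated data. Promoter windows are from RefSeq (GRCh38.p14), and exon overlaps and pseudogenes from GENCODE on GRCh38, another release than the authors' annotation.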

Additional observations from a re-analysis of the deposited data

Results flagged for a closer look

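For 11 of the 35 members the response to MLN4924 differed between PC3-shp14ARF and PC3 cells by a test of the difference itself. This was the interaction over 12 libraries (limma, adjusted over all 19932 genes by Benjamini-Hochberg). Of the members 8.57% were higher and 22.9% lower, not far from the 11.2% and 17.1% of all genes. In the mevalonate pathway the difference was −0.68 ± 0.095 (adjusted p = 0.000277) for HMGCS1, −0.45 ± 0.13 (adjusted p = 0.0272) for PMVK, −0.45 ± 0.11 (adjusted p = 0.00798) for IDI1 and −0.41 ± 0.10 (adjusted p = 0.00869) for FDPS, in log2 ± SE. HMGCS1 went from a small rise in PC3, a call lost under 4 of 15 alternative settings, to a fall. PMVK fell further, and IDI1 and FDPS rose less. In the later steps it was −0.53 ± 0.11 (adjusted p = 0.00455) for FDFT1, −0.30 ± 0.10 (adjusted p = 0.0467) for CYP51A1, −0.36 ± 0.088 (adjusted p = 0.0101) for HSD17B7 and −0.57 ± 0.10 (adjusted p = 0.0011) for EBP. For STARD4 it was 0.39 ± 0.13 (adjusted p = 0.0346), for ABCG1 0.54 ± 0.13 (adjusted p = 0.00909) and for FADS1 0.77 ± 0.10 (adjusted p = 0.000148).

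When each of the 12 libraries was left out in turn, 8 of these calls held each time and those of PMVK, CYP51A1 and STARD4 did not. PMVK lost it without 5 libraries (Ctrl 3, MLN 5, shARF 5, Both 3, Both 4; adjusted p 0.00756 to 0.0689), CYP51A1 without 8 (Ctrl 2, Ctrl 3, MLN 2, MLN 5, shARF 1, shARF 5, Both 2, Both 4; 0.0148 to 0.107) and STARD4 without 9 (each Ctrl library, MLN 2, MLN 5, shARF 1, shARF 5, Both 2, Both 3; 0.0149 to 0.0846). FADS1 and FADS2 share exon bases on opposite strands, so the part of this in the FADS1 value was not tested.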

How the results depend on the processing

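No called member changed direction under any alternative run. Each count of called members stayed within 1.5 times its value when the pseudocount was 1 or 0.01, when the floor was raised to 1 TPM or dropped, without the eBayes trend, and with all 12 libraries fitted together. With median-of-ratios scaling the interaction was higher for 8 members in place of 3, and for 16.2% of all genes in place of 11.2%. Leaving out 1 library gave 10 to 11 members higher and 20 to 21 lower in MLN vs Ctrl, 8 higher and 23 to 24 lower in Both vs shARF, 22 to 26 and 3 to 4 in shARF vs Ctrl, 11 to 16 and 3 to 4 in Both vs MLN, and 2 to 4 and 6 to 13 in the interaction. The 11 came without MLN 5 or without Both 2, and the 13 without Ctrl 1 or without MLN 1. Of all genes, leaving out 1 library gave 28.9% to 30.8% higher and 26.4% to 27.9% lower in MLN vs Ctrl. The shares were 25.5% to 27.6% and 29.4% to 32.2% in Both vs shARF. They were 16% to 21% and 16.5% to 18.7% in shARF vs Ctrl. In Both vs MLN they were 6.67% to 10.5% and 13.1% to 19.2%. In the interaction they were 9.51% to 11.9% and 14.1% to 18.6%.

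By the numbers in the column names, same-numbered libraries deviated from their group means with correlations from −0.0457 to 0.0222 over the genes tested. Differently numbered libraries were not compared, so these values cannot show whether the numbers pair the libraries. As a replicate block the numbers gave 6 members higher and 7 lower in MLN vs Ctrl. Calls over all genes fell as well, to 15.3% higher and 13.4% lower, from 32.2% and 29.4% without the block. In shARF vs Ctrl the block gave 0 and 0 members. In the interaction it gave 2 higher and 4 lower, against 7.49% and 8.09% of all genes. There PMVK (adjusted p = 0.174), FDFT1 (0.0745), CYP51A1 (0.383), HSD17B7 (0.0824), STARD4 (0.0675) and ABCG1 (0.08) lost their calls and SC5D (0.0446) gained one. In shARF vs Ctrl limma with the block called 0 of all genes too, and 24 members had an unadjusted p below 0.05. Ctrl shares only part of its numbers with MLN and with shARF. Libraries without a same-numbered partner add nothing to these blocked fits of 6 libraries, and little is left to estimate the spread from. The loss of calls there therefore cannot show whether the numbers matter. Both vs shARF and Both vs MLN share only 1 number, so 6 libraries could not be fitted with the block. The block was also put in one fit of all 12 libraries, an alternative chosen after seeing the data. There 10 members were higher and 20 lower in MLN vs Ctrl, against 31.2% and 29.1% of all genes. In Both vs shARF there were 7 and 20, against 26% and 27.5%. In shARF vs Ctrl there were 23 and 4, against 17.5% and 18.9%. In Both vs MLN there were 15 and 3, against 11.5% and 15%. The depth behind each value is unknown, and with 3 libraries a group small differences between responses have wide intervals.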
